A study of Mus musculus with 36 samples.

Results

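Mitochondrial complex I, the NADH dehydrogenase of the respiratory chain, was followed through its nuclear genes in mouse hearts with a switchable Akt1 transgene. The members were all genes on the 2 Affymetrix chips of the study, 430A and 430B, whose single platform symbol starts with Nduf and whose mean signal over the 18 arrays of a chip was at least 20% of that chip's trimmed mean. This gave 44 genes of the 14650 that passed the same filter. Of these, 34 encode subunits, 8 encode assembly factors (Ndufaf1 to Ndufaf8), and Ndufa4 and its paralog Ndufa4l2 were kept apart. Every one of the 44 passed the filter in each of the 5 groups on its own. Ndufs6 and Ndufa11 had no probe set with a single symbol among those used and were not analysed here.

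RNA came from whole hearts of male mice of the strain given as Tet-myrAkt1/?MHC-tTA, which carries both a tetracycline-controlled, myristoylated Akt1 and the transactivator tTA under a myosin heavy chain promoter of heart muscle. All 18 hearts carried both transgenes, and hearts without them were not analysed here. Of the induced hearts, 4 had 2 weeks of transgene induction and were 14 weeks old ("2 weeks on"). Another 4 hearts had 2 weeks of induction and then 2 days of repression, at 14 weeks and 2 days ("2 days off"). Then 3 hearts had 6 weeks of induction and were 18 weeks old ("6 weeks on"), and 3 hearts had 6 weeks of induction and 2 weeks of repression and were 20 weeks old ("2 weeks off"). The remaining 4 hearts were from before induction, at 12 weeks of age, so age differed between all groups and its part in any difference was not tested. Each heart came from an individual mouse, so p-values reflect how much these hearts differ within a group.

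Complex I takes electrons from NADH, passes them along flavin and iron-sulfur centres to ubiquinone, and pumps protons across the inner mitochondrial membrane. Its matrix arm has an N module, where NADH is oxidised, and a Q module, where ubiquinone is reduced, while the membrane arm holds the proton pumps. Core subunits carry out the catalysis, with the membrane-arm core encoded by mitochondrial DNA, and accessory subunits surround and stabilise them. Assembly factors build the complex and are not part of the finished enzyme. Heart muscle depends on it heavily because most of its ATP comes from oxidative phosphorylation.

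Akt1 served as a check of the labels, read on its probe set of chip 430A with the largest change between 2 weeks on and before induction. Because of that choice, the contrast of those groups is no independent check. Akt1 averaged 2878 ± 645 signal units at 2 weeks on, 718 ± 21.8 at 2 days off, 2365 ± 542 at 6 weeks on and 753 ± 106 at 2 weeks off, against 547.8 ± 69.7 before induction (SD, n = 4, 4, 3, 3 and 4). All 8 markers of cardiomyocytes (among them Myh6, Tnnt2 and Actc1) were bright in every heart, with a lowest signal of 13496, for Pln at 6 weeks on. Some hearts stood apart. Heart 1 before induction and heart 1 at 2 weeks on had the highest mean signals on chip 430A, 759.5 and 777.6 against 673.9 to 742.0 in the other 16 hearts, and held the highest value of their group for 26 and 24 of the 33 subunits on that chip. Hearts 3 and 4 before induction, labelled male, carried Xist signals of 3271 to 5413 against 136.2 to 289.2 in the other 16 hearts. Heart 3 at 6 weeks on had a ratio of 3′ to 5′ Actb signal, a measure of RNA integrity, of 3.71, and the ratio averaged 1.09 ± 0.06 at 2 days off, against 1.47 ± 0.30 at 2 weeks on.

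**Figure D1:**
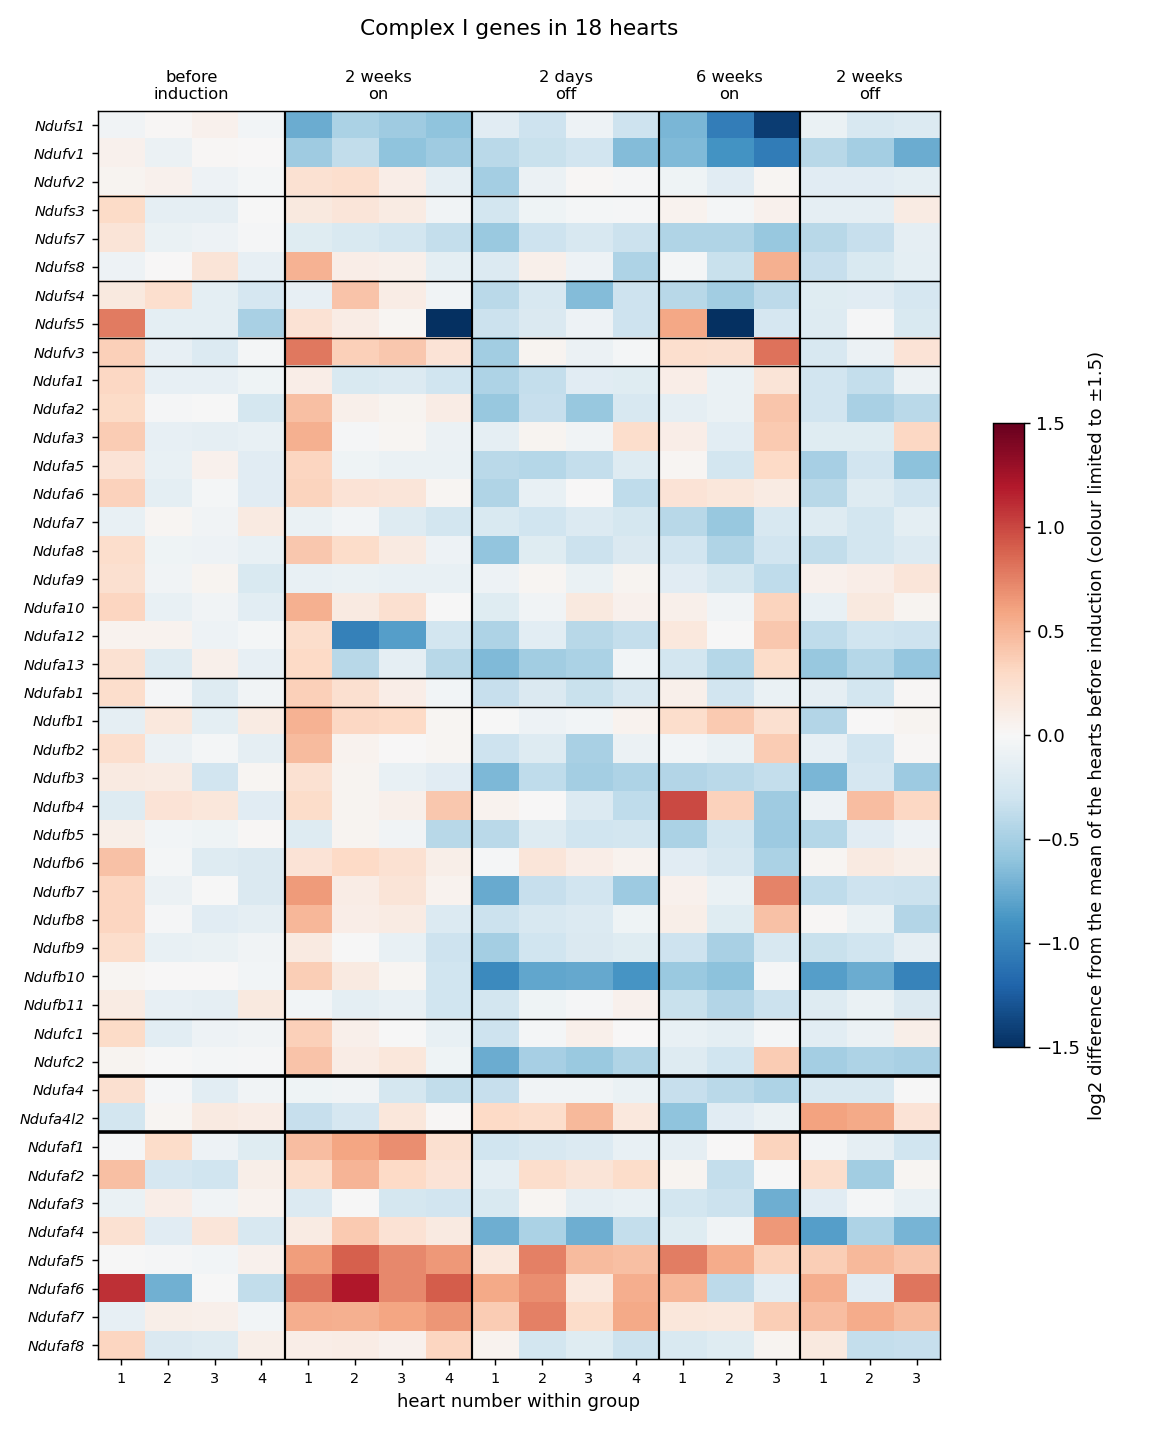
Log2 difference of each of the 44 complex I genes (rows) in each of the 18 hearts (columns, heart number within a group) from the mean of the 4 hearts before induction, with colour limited to 1.5 in either direction and horizontal lines between classes. Ndufs1 and Ndufv1 in the top rows are lowest at 6 weeks on, and the row of Ndufb10 is blue in all 4 hearts at 2 days off and all 3 at 2 weeks off.

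Signals were compared on a log2 scale with 10% of the trimmed mean added to each signal, and a gene was called at an adjusted p under 0.05 over all probe sets of its chip. Each value after "rose by", "fell by" or "changed by" is a log2 change on that scale, and each mean is a mean signal ± SD over the hearts of a group. Over the 34 subunits, the median log2 change was 0.09 for 2 weeks on against before induction, where 2 fell and 0 rose (2 with a positive change had an unadjusted p under 0.05), beside 2.9% and 3.69% of all genes. Without heart 1 before induction 2 rose, and without both hearts with Xist signal 0 fell and the median change was -0.01. The median was -0.26 for 2 days off against 2 weeks on, where 11 fell and 1 rose, beside 5.36% and 5.23% of all genes. It was -0.08 for 6 weeks on against before induction, where 8 fell and 0 rose (2 at an unadjusted p under 0.05), beside 8.14% and 7.58% of all genes. With every array scaled to a common median that last count became 2 lower and 2 higher and the median change 0.13, so the direction of the family as a whole at 6 weeks on turned with the scaling. Over all genes the median log2 changes were -0.02, -0.00 and -0.05 in these 3 comparisons. These and all later shares and medians over all genes pool both chips, while 33 of the 34 subunits were read on chip 430A. Over the probe sets of chip 430A that passed the filter, the medians were -0.05, 0.05 and -0.11. In whole hearts, fewer cells of a type and less RNA per cell cannot be told apart.

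**Figure D2:**
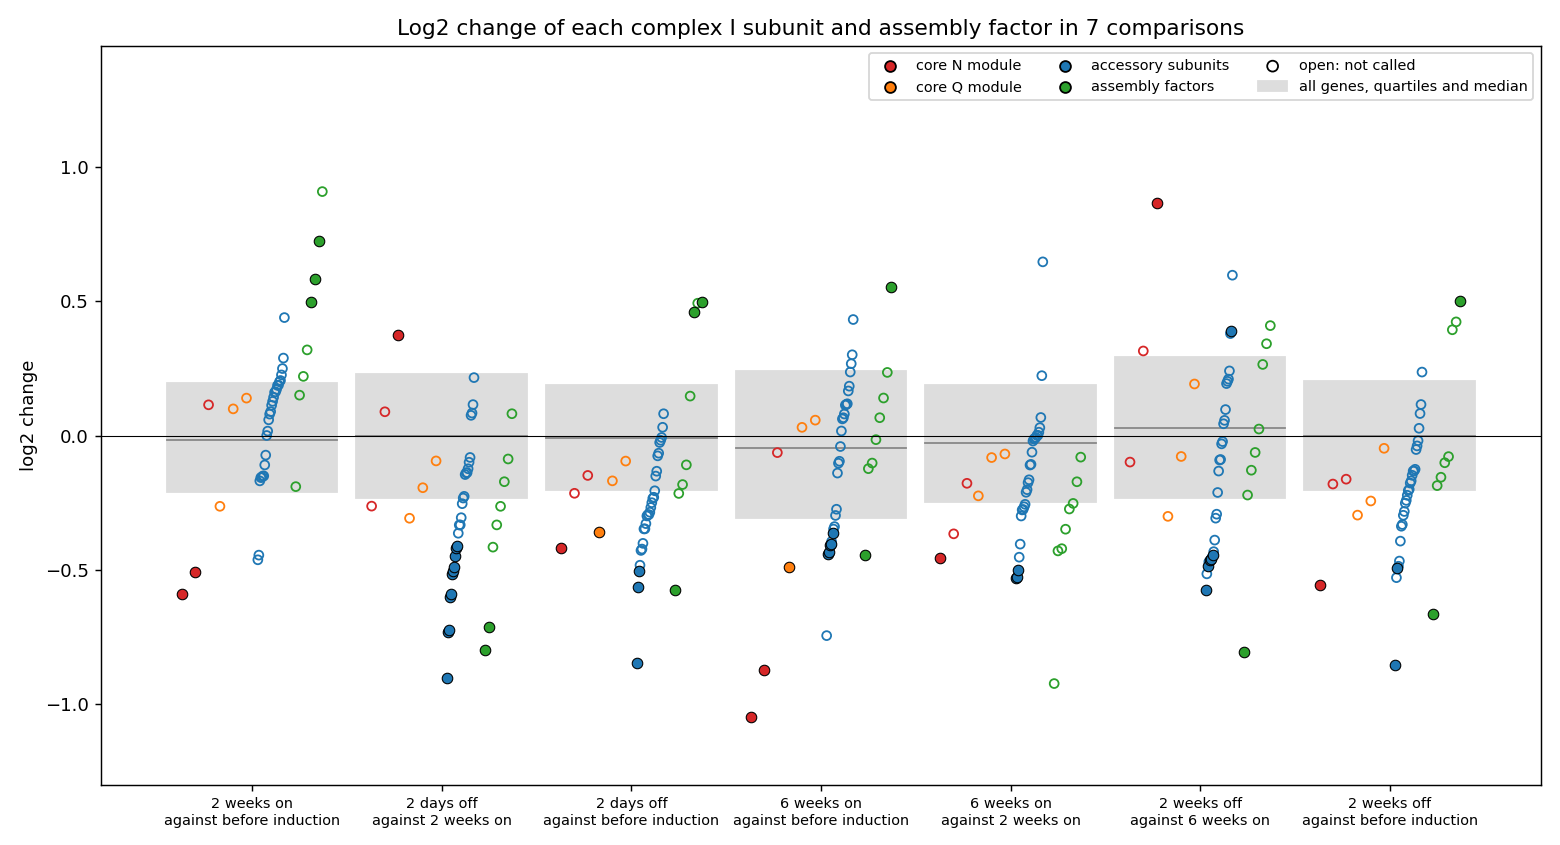
Log2 change (y axis) of each of the 34 subunits, split into core N module, core Q module and accessory subunits, and of the 8 assembly factors in 7 comparisons (x axis), with filled points called at an adjusted p under 0.05, open points not called, and a grey box for the quartiles and median of all 14650 genes. The 2 lowest points at 6 weeks on against before induction are Ndufs1 and Ndufv1, in the red of the N module, and 11 accessory subunits are filled below 0 at 2 days off against 2 weeks on.

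The N module held the largest falls of any subunit during induction in the comparison of 6 weeks on with before induction. Ndufs1 encodes the large iron-sulfur subunit that passes electrons from the flavin towards the Q module. Its signals were 4222, 5117, 4884 and 4660.1 at 2 weeks on, against 6887, 7201, 7461 and 6940.4 before induction. At 6 weeks on they were 4416, 3455 and 2618. No heart of either induced group reached the lowest heart before induction. Ndufs1 fell by 0.59 (SE 0.12, adjusted p = 0.00571) at 2 weeks on and fell by 1.05 (SE 0.13, adjusted p = 3.59e-05) at 6 weeks on, where its mean was 0.49 times that before induction (3496 ± 899.7, n = 3, against 7122 ± 264, n = 4). Between 6 weeks on and 2 weeks on it fell by 0.46 (SE 0.13, adjusted p = 0.0466), with overlapping hearts.

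Ndufs1 was the subunit called higher after repression at both times. Its signals were 6313, 5743, 6768 and 5739 at 2 days off, all above the 4 hearts at 2 weeks on, and it rose by 0.38 (SE 0.12, adjusted p = 0.0414). This call at 2 days was lost in 12 of 19 alternative settings, with adjusted p between 0.00875 and 0.224. At 2 weeks off its signals were 6665, 5999 and 6179, again above all 3 hearts at 6 weeks on, and it rose by 0.87 (SE 0.14, adjusted p = 0.000601), a call kept in all 16 alternatives. Both repressed groups stayed below the mean before induction without a call, at -0.22 (adjusted p = 0.344) for 2 days off and -0.18 (adjusted p = 0.517) for 2 weeks off.

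Ndufv1 binds NADH and the flavin where the electrons enter. Its signals were 7454, 8357, 7101 and 7428 at 2 weeks on and 6766, 5756 and 5176 at 6 weeks on, against 11305, 10099, 10928 and 10809.9 before induction. It fell by 0.51 (SE 0.11, adjusted p = 0.00722) at 2 weeks on and fell by 0.87 (SE 0.12, adjusted p = 7.27e-05) at 6 weeks on, and neither induced group overlapped the hearts before induction. No rise after repression was called. The change was 0.09 (SE 0.11, adjusted p = 0.626) for 2 days off against 2 weeks on and 0.31 (SE 0.13, adjusted p = 0.0919) for 2 weeks off against 6 weeks on. Signals were 8139, 8567, 8839.6 and 6821 at 2 days off and 8077, 7529 and 6409 at 2 weeks off, still below every heart before induction, with calls against those hearts of -0.42 (SE 0.11, adjusted p = 0.033) and -0.56 (SE 0.12, adjusted p = 0.0129). These 2 calls were lost in 12 of 20 and 4 of 19 alternatives, both of them without the 2 hearts that carry Xist signal. Of the 3 probe sets of Ndufv1, 1 was called lower against before induction at 2 weeks on, at 2 days off and at 2 weeks off. The smallest falls among the 3 were -0.38, -0.06 and -0.28. With 1 of the uncalled probe sets, hearts at 2 days off (5097, 6337, 9068 and 5328) overlapped those before induction (8162, 6253, 6161 and 5903). Without the 2 hearts before induction that carry Xist signal, the calls of Ndufs1 (adjusted p = 0.0744) and Ndufv1 (adjusted p = 0.0874) at 2 weeks on were lost, while both calls at 6 weeks on held in all 19 alternatives.

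Ndufv2, the iron-sulfur partner of Ndufv1, was not called with its representative probe set in any comparison. It averaged 14244 ± 1683 at 2 weeks on and 12537 ± 862 at 6 weeks on, against 13094 ± 596 before induction, and its log2 change at 6 weeks on was -0.06 (SE 0.12, adjusted p = 0.752). Of the 3 core subunits of the N module, 2 were thus called during induction by their representative probe sets.

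**Figure D3:**
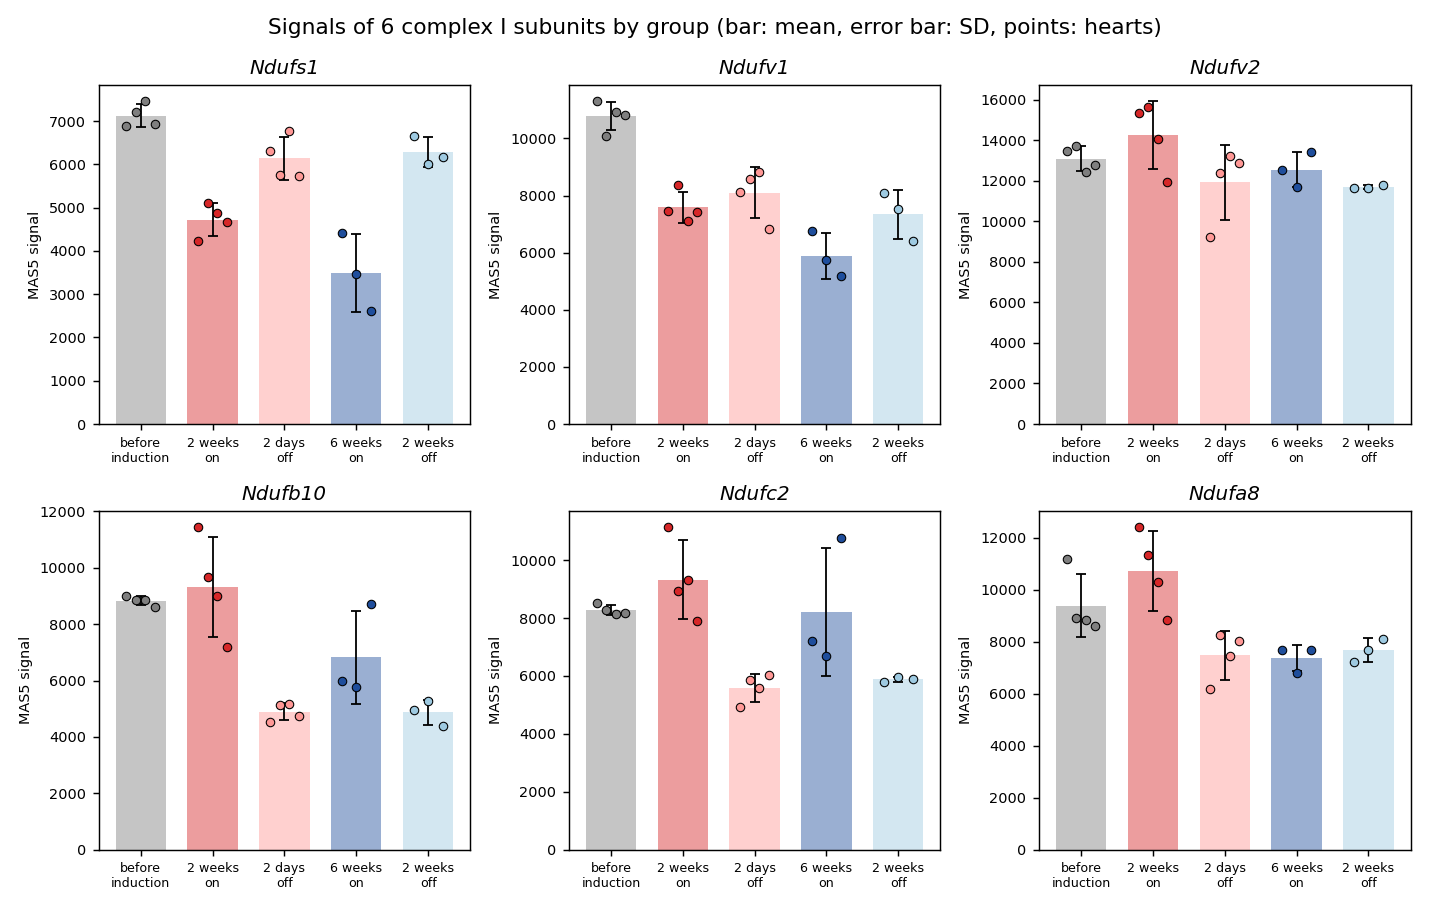
MAS5 signal (y axis, from 0) of 6 subunits in the 5 groups (x axis, in order of age), with bars for means, error bars for SD and points for single hearts (n = 4, 4, 4, 3 and 3). Ndufs1 and Ndufv1 are low at 2 and 6 weeks on, Ndufs1 is at 5739 or more in both repressed groups, and Ndufb10 and Ndufc2 are low in the repressed groups.

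The Q module had 3 core subunits among the members. Ndufs7, which carries the last iron-sulfur centre before ubiquinone, had signals of 7880.5, 7889.7 and 7231 at 6 weeks on, against 12290.0, 10058, 10183 and 10667 before induction. It fell by 0.49 (SE 0.11, adjusted p = 0.00392), without overlap between the hearts, and was lost only with median scaling among 19 alternatives. At 2 days off its signals were 7304, 8667, 9099.7 and 8592, and it fell by 0.36 (SE 0.10, adjusted p = 0.0443) against before induction, a call lost in 15 of 20 alternatives. Its other probe set was not called at 6 weeks on against before induction, with 0.02 (SE 0.17, adjusted p = 0.95), and was called lower at 2 days off against before induction, with -0.68 (SE 0.15, adjusted p = 0.0147). Ndufs8, another iron-sulfur subunit, and Ndufs3, a scaffold subunit of the Q module, were not called with their representative probe sets. Ndufs8 changed by 0.06 (SE 0.18, adjusted p = 0.851) and Ndufs3 by 0.03 (SE 0.12, adjusted p = 0.88) at 6 weeks on against before induction.

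Of the 7 comparisons, that of 2 days off with 2 weeks on had the most calls among the accessory subunits. Of the 28 accessory subunits, 11 fell against 2 weeks on, and 4 of these were Ndufb subunits of the membrane arm, 3 were Ndufa subunits, and the others were Ndufc2, Ndufab1, Ndufs4 and Ndufv3. Ndufb10, a disulfide-bonded subunit on the intermembrane side of the membrane arm, had signals of 4534, 5130.0, 5181 and 4739 at 2 days off, against 11449, 9655, 8998 and 7172 at 2 weeks on. The hearts did not overlap, and the gene fell by 0.90 (SE 0.14, adjusted p = 0.000365). Before induction the signals lay closely together at 9004, 8839, 8854 and 8605, and against them 2 days off fell by 0.85 (SE 0.14, adjusted p = 0.00171). At 2 weeks on its change against before induction had been 0.06 (SE 0.14, adjusted p = 0.844), without a call.

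Ndufc2, a small subunit of the membrane arm, had signals of 4914, 5855, 5589 and 6019 at 2 days off, against 11150.1, 8938, 9304 and 7892 at 2 weeks on. All 4 hearts at 2 days off were lower, and the gene fell by 0.72 (SE 0.13, adjusted p = 0.00129). Against the hearts before induction, at 8515, 8265, 8134 and 8171, it fell by 0.56 (SE 0.13, adjusted p = 0.0168). Ndufb7, like Ndufb10 a disulfide-bonded intermembrane subunit, had signals of 6320.3, 8408, 8793 and 7296 at 2 days off, against 16683, 11592, 12250.2 and 11065 at 2 weeks on, and fell by 0.73 (SE 0.17, adjusted p = 0.00653). The groups did not overlap, and heart 1 at 2 weeks on was the highest of its group.

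Ndufa2, a small N-module subunit with a thioredoxin fold, had signals of 3574, 4186, 3564 and 4505 at 2 days off, against 7293, 5620.1, 5475 and 5740.0 at 2 weeks on. It fell by 0.60 (SE 0.14, adjusted p = 0.00704), with no overlap. Ndufa8, a disulfide-bonded subunit on the intermembrane side, had 6184, 8253, 7445 and 8028 at 2 days off, against 12427, 11346, 10287 and 8856 at 2 weeks on, and fell by 0.52 (SE 0.12, adjusted p = 0.00712). Ndufb3, a membrane-arm subunit, had 4465, 5458, 5018 and 5189 at 2 days off, against 8402, 7371, 6634 and 6348 at 2 weeks on, and fell by 0.51 (SE 0.12, adjusted p = 0.00794). Hearts of both groups were again separate for each of these genes. Ndufb3 also fell by 0.51 (SE 0.12, adjusted p = 0.0208) against before induction, where the hearts had 7874, 7775, 5824 and 7312.

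The other 5 calls had higher adjusted p. Ndufv3, an accessory subunit of the N module, averaged 12138 ± 1979 at 2 days off and 18309 ± 3381 at 2 weeks on, a log2 change of -0.59 (SE 0.17, adjusted p = 0.0205). Ndufs4, a late-joining N-module subunit whose loss in mice gives a model of Leigh syndrome, averaged 2702 ± 333 at 2 days off and 3838 ± 694 at 2 weeks on, and fell by 0.49 (SE 0.13, adjusted p = 0.0156). Ndufab1, the mitochondrial acyl carrier protein, fell by 0.45 (SE 0.12, adjusted p = 0.0128), and Ndufa6, the subunit that binds a copy of it, fell by 0.42 (SE 0.13, adjusted p = 0.0249). Ndufb2, another membrane-arm subunit, fell by 0.41 (SE 0.14, adjusted p = 0.0423) and lost its call in 12 of 19 alternatives. Ndufa6, Ndufv3, Ndufs4 and Ndufab1 lost theirs in 5, 4, 2 and 1 of 19. Calls of Ndufb10, Ndufc2, Ndufb7, Ndufa2, Ndufa8 and Ndufb3 against 2 weeks on held in all 19.

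The median over the 33 subunits on chip 430A, taken in each heart as the difference from the mean before induction, was -0.41 to -0.21 at 2 days off, against -0.12 to 0.30 at 2 weeks on and -0.07 to 0.24 before induction. The 4 hearts at 2 days off thus lay below every heart of both other groups. With quantile normalization the median change of the subunits against 2 weeks on became -0.05 and that against before induction -0.09, and 9 subunits were lower and 3 higher against 2 weeks on. Without the 2 hearts of highest array mean, a setting chosen after seeing the data, 9 subunits were lower and 0 higher. The 8 cardiomyocyte markers had a median change of -0.20 against 2 weeks on with 0 called, and their summed signal was 150825 to 196766 at 2 days off, against 161639 to 281384 at 2 weeks on. Their part in the result was not tested.

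Compared with the hearts before induction, 5 subunits were lower at 2 days off and 0 higher (0 also at an unadjusted p under 0.05), beside 1.81% and 2% of all genes. These were Ndufb10, Ndufc2, Ndufb3, Ndufv1 and Ndufs7. The median change of the 34 was -0.26, and 32 of them had a negative change, while the median of all genes was -0.01. The cardiomyocyte markers had a median of -0.31, with all 8 negative and 0 called, and their summed signal was 199050 to 256893 before induction. Leaving out heart 1 at 2 days off reduced the 5 calls to 1, leaving out heart 1 or heart 2 before induction to 2, and leaving out heart 2 or heart 4 at 2 days off or heart 3 before induction to 3. Without both hearts with Xist signal, and likewise without both hearts of highest array mean, the count was 3.

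At 6 weeks on, accessory subunits made up 5 of the 8 falls against before induction. Ndufa7, an accessory subunit of the matrix arm, had signals of 6649, 5971 and 7506 at 6 weeks on, against 8216, 9040.5, 8566 and 9733 before induction, and fell by 0.41 (SE 0.10, adjusted p = 0.00884). Ndufb5, a membrane-arm subunit, had 8281, 9508 and 7865 at 6 weeks on, against 12214, 11228, 11024 and 11652 before induction, and fell by 0.43 (SE 0.12, adjusted p = 0.0152). With these probe sets, every heart at 6 weeks on was below every heart before induction. The other probe set of Ndufb5 changed by -0.07 without a call. Its hearts overlapped, at 5112, 4712 and 8429 at 6 weeks on, against 6705, 6399, 6481 and 5184.5 before induction. Of 5 probe sets of Ndufa7, 2 were called lower. Ndufs4 fell by 0.44 (SE 0.14, adjusted p = 0.0347), Ndufb3 fell by 0.40 (SE 0.13, adjusted p = 0.0347) and Ndufb11 fell by 0.36 (SE 0.11, adjusted p = 0.0242). For Ndufs4 and Ndufb11 only 1 of 3 probe sets was called. The changes of their probe sets ran from -0.44 to -0.08 and from -0.36 to 0.10. Each of the 5 calls of accessory subunits was lost with median scaling and when only the groups compared entered the model, where 3 subunits in all were lower. Without heart 2 at 6 weeks on the count of lower subunits was 5, and without both hearts with Xist signal it was 6. The 8 cardiomyocyte markers had a median change of -0.25 in the same comparison and summed to 146244 to 211441 at 6 weeks on, against 199050 to 256893 before induction. Of them 1 was called, Pln, the inhibitor of the calcium pump, which was lower, with signals of 13496 to 15895 at 6 weeks on, against 20593 to 26126 before induction.

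Between 6 weeks on and 2 weeks on, 4 subunits were lower and 0 higher (1 with a positive change had an unadjusted p under 0.05), beside 2.82% and 2.35% of all genes. The median change was -0.17, and was -0.06 with median scaling and -0.08 without both hearts of highest array mean. Besides Ndufs1, these were Ndufa8, Ndufb6 and Ndufs4. Ndufa8 had signals of 7676, 6813 and 7669 at 6 weeks on, against 12427, 11346, 10287 and 8856 at 2 weeks on, and fell by 0.53 (SE 0.13, adjusted p = 0.0212). Ndufb6, a membrane-arm subunit, had 4262, 4066 and 3452 at 6 weeks on, against 5553, 5937, 5642 and 5141 at 2 weeks on, and fell by 0.50 (SE 0.13, adjusted p = 0.0303). Ndufs4 had 2669, 2461 and 2714 at 6 weeks on, against 3259.7, 4813, 3839.7 and 3439 at 2 weeks on, and fell by 0.53 (SE 0.14, adjusted p = 0.0322). The hearts of these 3 genes did not overlap. All 4 calls were lost with median scaling and without heart 2 at 6 weeks on, and the count was also 0 without heart 2 at 2 weeks on and 1 without heart 3 at 2 weeks on.

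After 2 weeks of repression, 5 subunits were lower and 2 higher than at 6 weeks on, beside 5.53% and 7.19% of all genes. The median change was -0.09, and it turned to 0.04 with quantile normalization, where 7 were higher and 6 lower, and to 0.01 with the Actb ratio as a covariate. The 2 that rose were Ndufs1 and Ndufa9, a subunit near the ubiquinone site that binds NADPH. Ndufa9 had signals of 9576, 9762 and 10372 at 2 weeks off, against 8083, 7589 and 6994 at 6 weeks on, and rose by 0.39 (SE 0.11, adjusted p = 0.0218). This call was lost in 6 of 16 alternatives, among them median scaling and the Actb ratio as a covariate. The 5 that fell were Ndufa6, Ndufa5, Ndufc2, Ndufb10 and Ndufb7. Ndufa6 had 5195, 6072 and 5643 at 2 weeks off, against 7978, 7778 and 7566 at 6 weeks on, and fell by 0.46 (SE 0.14, adjusted p = 0.0311). Ndufa5, an accessory subunit of the matrix arm, had 5699, 6617 and 5269 at 2 weeks off, against 8263, 6654 and 9961 at 6 weeks on, and fell by 0.48 (SE 0.15, adjusted p = 0.0343). The calls of Ndufa6 and Ndufa5 were lost in 8 and 7 of 16 alternatives.

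Heart 3 at 6 weeks on, with the Actb ratio of 3.71, was high for several of the genes that fell. Ndufc2 had 5809, 5970.4 and 5886 at 2 weeks off, against 7208, 6693 and 10757 at 6 weeks on, and fell by 0.45 (SE 0.15, adjusted p = 0.0455). Its other probe set on chip 430A did not fall, with 0.01 and no call. A bright probe set of Ndufc2 on chip 430B averaged 4588 ± 622 at 2 weeks off and 3898 ± 818 at 6 weeks on. Ndufb10 had 4958, 5258 and 4387 at 2 weeks off, against 5988, 5766 and 8712 at 6 weeks on, and fell by 0.46 (SE 0.16, adjusted p = 0.0475). Ndufb7 fell by 0.57 (SE 0.20, adjusted p = 0.0477). With the probe set that stands for each of these genes, the groups did not overlap, and the third heart at 6 weeks on was the highest of its group. The count of lower subunits was 0 without that heart, 0 without heart 1 at 2 weeks off, 2 without heart 2 and 1 without heart 3 of that group, and 0 with the Actb ratio as a covariate. The part of RNA quality in these falls was not tested beyond this.

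Against the hearts before induction, 3 subunits were lower at 2 weeks off and 0 higher (0 also at an unadjusted p under 0.05), beside 1.21% and 1.5% of all genes. The median change was -0.20, with 30 of 34 negative, and was -0.07 with quantile normalization, beside -0.00 over all genes and -0.30 over the 8 cardiomyocyte markers, of which 0 were called. Ndufb10 fell by 0.86 (SE 0.15, adjusted p = 0.00323) and kept its call in all 19 alternatives. Its mean was 4868 ± 442 at 2 weeks off and 4896 ± 312 at 2 days off, against 8826 ± 165 before induction (SD, n = 3, 4 and 4). Ndufv1 fell by 0.56 (SE 0.12, adjusted p = 0.0129), and Ndufb3, with 4439, 5978 and 4884 at 2 weeks off and overlapping hearts, fell by 0.49 (SE 0.13, adjusted p = 0.0433). The call of Ndufb3 was lost in 11 of 19 alternatives. Without heart 3 at 2 weeks off the count was 1, and without both hearts with Xist signal it was 2.

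Whether repression changed the subunits differently after 6 weeks than after 2 weeks was tested as the difference of both repression effects. No subunit passed in limma, with 0 higher and 0 lower, beside 0.321% of all genes in each direction, while 7 had a positive and 1 a negative difference (after 6 weeks minus after 2 weeks) at an unadjusted p under 0.05. The counts were also 0 in every alternative run. Ndufs4 came nearest, with a difference of 0.73 (SE 0.20, adjusted p = 0.0918), followed by Ndufa8 with 0.57 (SE 0.19, adjusted p = 0.16). The hearts were repressed for 2 weeks in one case and 2 days in the other, so the length of repression and that of induction cannot be told apart.

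Probe sets of the same gene often read different sizes of change. On chip 430A, 19 subunit genes had several probe sets that passed the filter. At 2 days off against 2 weeks on, 12 of the 19 had some probe set called, 2 (Ndufb7 and Ndufc2) had all called one way, and 0 had opposite calls. The range between probe sets of 1 gene had a median of 0.30 on the log2 scale and reached 0.67 for Ndufa10. Counting a subunit when any of its probe sets was called gave 18 lower in place of 11 in that comparison. Genes with several probe sets have more chances of such a call, and no share of all genes counted this way is given. Further falls came from Ndufv2 at -0.71 (SE 0.16, adjusted p = 0.00464), Ndufs7 at -0.66 (SE 0.15, adjusted p = 0.00638), Ndufa5 at -0.84 (SE 0.17, adjusted p = 0.00228), Ndufb6 at -0.70 (SE 0.14, adjusted p = 0.00256) and Ndufb5 at -0.59 (SE 0.15, adjusted p = 0.0121). The others were Ndufs8, on 3 of its probe sets, and Ndufb11.

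At 6 weeks on against before induction, the kind of probe set moved with the change. The 26 probe sets of subunits with the suffix _at, which the manufacturer designed against 1 transcript sequence, had a median change of -0.29, and 8 were lower and 0 higher. The other 38, with the suffixes _a_at, _s_at or _x_at, which can match several transcripts or related sequences, had a median of -0.03, with 5 lower and 1 higher. The one that rose belonged to Ndufs8, at 0.51 (SE 0.14, adjusted p = 0.016), while its representative was not called. All 3 probe sets of Ndufv1 fell, at -0.87 (SE 0.12, adjusted p = 7.27e-05), -0.71 (SE 0.21, adjusted p = 0.0199) and -0.61 (SE 0.19, adjusted p = 0.0269). Ndufab1 fell by its dimmer probe set, at -0.81 (SE 0.18, adjusted p = 0.00401), and its brighter one changed by -0.10 (SE 0.13, adjusted p = 0.598). At 2 days off against 2 weeks on both kinds were low, with medians of -0.23 for the suffix _at and -0.35 for the others. At 2 weeks off against 6 weeks on the order was turned, with a median of 0.03 for the suffix _at, where 1 was higher and 3 lower, and -0.26 for the others, where 1 was higher and 7 lower. Counts and medians over all probe sets of each suffix are not given. Whether these differences between suffixes are particular to the subunits was thus not tested.

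**Figure D4:**
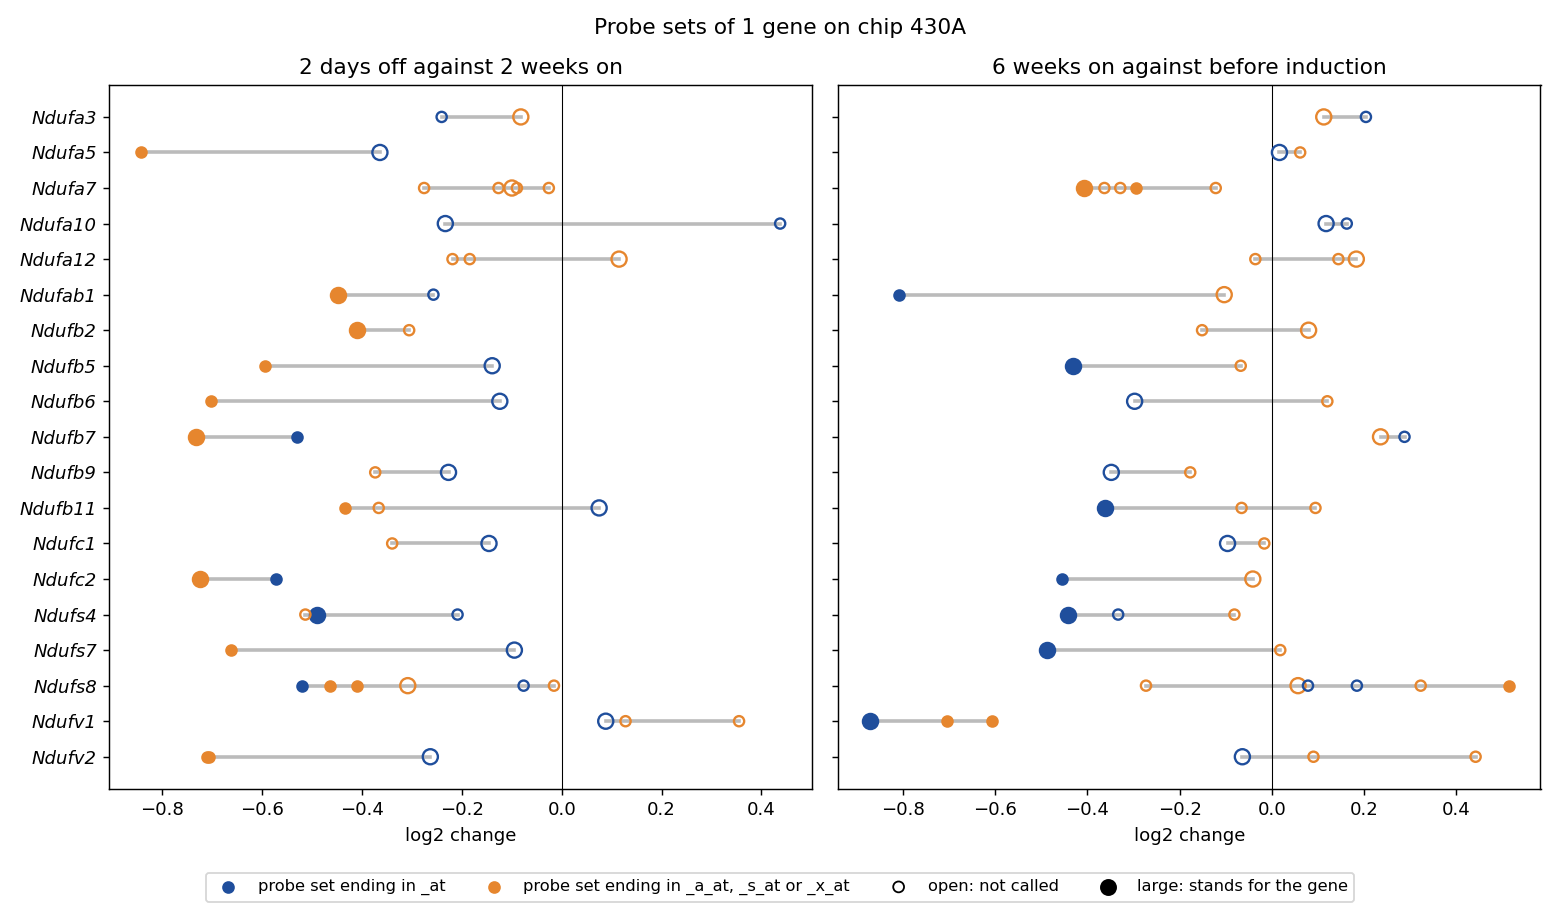
Log2 change (x axis) of every probe set of the 19 subunit genes with several on chip 430A (rows), for 2 days off against 2 weeks on (left) and 6 weeks on against before induction (right), with large points for the probe set that stands for the gene, filled points called, blue for the suffix _at and orange for the others. Ndufv1 is called on all 3 probe sets at 6 weeks on, and the ranges of Ndufs8 and Ndufab1 there are wide.

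Ndufs5, an accessory subunit on the intermembrane side, varied widely between hearts of a group. Its signal was 961 in heart 4 at 2 weeks on and 699 in heart 2 at 6 weeks on, against 3112 to 7525 before induction. It was called in no comparison. Ndufa12, an accessory subunit of the matrix arm and paralog of Ndufaf2, had signals of 16294, 6692, 7590.4 and 11195 at 2 weeks on, against 14040.1, 14013, 12893 and 13262 before induction, and a change of -0.46 (SE 0.19, adjusted p = 0.142). Its probe sets differed by up to 0.88 between 6 weeks on and 2 weeks on.

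Promoter sequences were read for the genes whose falls at 2 days off carry the results above, because these fell together. RefSeq promoters of GRCm38.p6 were held for 31 of the 34 subunits and 7 of the 8 assembly factors, and the 250 bases before the start were searched on both strands for AAGGTCA, the short site of estrogen-related receptors, CCGGAAG, the ETS core bound by GABP, and GCATGCGC, the core of the NRF1 motif. Of 33 subunit promoters, 9.09% held the estrogen-related receptor site, beside 4.08% of all 32851 promoters. The ETS core was in 9.09%, beside 6.91%, and the NRF1 core in 6.06%, beside 2.26%. These shares rest on 3, 3 and 2 promoters, are a description, and show no binding. Shown here are the 120 bases before the start, 5′ to 3′ on the strand of the gene, with matches in capitals, for 3 subunits and 2 assembly factors that fell at 2 days off and hold a match, and for Ndufb10, which fell most and holds none.
Ndufa6: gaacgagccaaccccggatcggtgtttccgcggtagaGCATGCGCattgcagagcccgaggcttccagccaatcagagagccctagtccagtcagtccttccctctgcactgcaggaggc
Ndufa8: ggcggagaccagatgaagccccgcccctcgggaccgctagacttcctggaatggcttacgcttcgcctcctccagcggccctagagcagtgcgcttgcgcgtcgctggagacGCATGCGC
Ndufb7: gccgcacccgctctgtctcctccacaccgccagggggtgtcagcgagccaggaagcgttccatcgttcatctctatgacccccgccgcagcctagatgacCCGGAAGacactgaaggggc
Ndufaf1: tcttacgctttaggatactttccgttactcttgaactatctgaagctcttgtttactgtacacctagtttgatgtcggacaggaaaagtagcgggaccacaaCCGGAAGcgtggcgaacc
Ndufaf4: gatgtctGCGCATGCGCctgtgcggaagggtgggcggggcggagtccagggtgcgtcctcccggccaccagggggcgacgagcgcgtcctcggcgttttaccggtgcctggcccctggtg
Ndufb10: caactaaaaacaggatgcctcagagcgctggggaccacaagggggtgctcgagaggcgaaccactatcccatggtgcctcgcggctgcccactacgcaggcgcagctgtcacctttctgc
They lie at chr15:82354292-82354411, - strand for Ndufa6, chr2:36049339-36049458, - strand for Ndufa8 and chr8:83566638-83566757, + strand for Ndufb7. Those of Ndufaf1, Ndufaf4 and Ndufb10 lie at chr2:119662835-119662954, - strand, at chr4:24897963-24898082, + strand and at chr17:24724424-24724543, - strand. The NRF1 core begins 83 bases before the start in Ndufa6 and 8 before it in Ndufa8. In Ndufaf4 matches on opposite strands overlap, beginning 113 and 111 bases before the start. The ETS core begins 20 bases before the start in Ndufb7 and 18 before it in Ndufaf1. Further matches were in Ndufb2, Ndufb4, Ndufb6, Ndufs3, Ndufs5 and Ndufaf8, of which Ndufb2 alone fell in the same comparison by its representative probe set. The other probe set of Ndufb6 was also called lower there, at -0.70. For Ndufb10, Ndufc2 and Ndufv1 the search says only that these letters are not in the window.

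Of the genes kept apart, Ndufa4, now placed in complex IV, had signals of 12278, 11788 and 11242 at 6 weeks on, against 18349, 15365, 13916 and 14953 before induction. It fell by 0.40 (SE 0.12, adjusted p = 0.0226) with no overlap, and lost the call in 4 of 19 alternatives, among them without heart 1 before induction and without heart 3 at 6 weeks on. Ndufa4l2, its paralog that is induced by hypoxia, was measured on chip 430B, with 716, 701 and 540.4 at 2 weeks off, against 304, 414 and 437 at 6 weeks on. It rose by 0.75 (SE 0.18, adjusted p = 0.0207), and the call was lost in 5 of 16 alternatives.

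Assembly factors were higher, not lower, where they were called at 2 weeks on. Of 8, 3 rose and 0 fell at 2 weeks on against before induction (0 with a negative change had an unadjusted p under 0.05), beside 3.69% and 2.9% of all genes, and their median change was 0.41, beside -0.02 over all genes. Ndufaf5, which in human cells hydroxylates an arginine of the Ndufs7 protein, had signals of 615, 756, 664 and 628 at 2 weeks on, against 379.8, 378, 368 and 403 before induction, and rose by 0.72 (SE 0.13, adjusted p = 0.00168). Ndufaf7, a mitochondrial methyltransferase, had 597, 593, 621 and 649.8 at 2 weeks on, against 356, 423, 417 and 382 before induction, and rose by 0.58 (SE 0.12, adjusted p = 0.00385). Neither gene's hearts overlapped, and both calls held in all 20 alternatives. Ndufaf1, of the complex that builds the membrane arm, had 1457, 1605, 1726 and 1242 at 2 weeks on, against 1035, 1276, 994 and 913 before induction, and rose by 0.50 (SE 0.13, adjusted p = 0.0229). Its hearts overlapped, and 6 of 20 alternatives lost the call.

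Ndufaf5 had 684, 585 and 496 at 6 weeks on and rose by 0.55 (SE 0.14, adjusted p = 0.0086) against before induction. At 2 days off it had 433, 678, 552 and 541 and rose by 0.46 (SE 0.13, adjusted p = 0.0431), a call lost in 14 of 20 alternatives. Ndufaf7 had 529.7, 699, 487 and 608 at 2 days off and 563, 604 and 566 at 2 weeks off, above every heart before induction, with changes of 0.50 (SE 0.12, adjusted p = 0.0171) and 0.50 (SE 0.12, adjusted p = 0.0319), calls lost in 5 of 20 and 9 of 19 alternatives. At 6 weeks on Ndufaf7 was not called, with 0.23 (SE 0.12, adjusted p = 0.189).

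Ndufaf4 was called lower in both repressed groups, and Ndufaf1 at 2 days off. Ndufaf4, which works with Ndufaf3 on the Q module, had signals of 627, 761, 629 and 829 at 2 days off, against 1181, 1437, 1263 and 1191 at 2 weeks on, and fell by 0.80 (SE 0.17, adjusted p = 0.00328). At 2 weeks off it had 584, 766 and 647, against 948, 1034 and 1724 at 6 weeks on, and fell by 0.80 (SE 0.19, adjusted p = 0.00692). The second call was lost in 2 of 16 alternatives, with only the groups compared and with the Actb ratio as a covariate. A second, dimmer probe set of Ndufaf4 was called in no comparison, and changed by -0.43 (SE 0.20, adjusted p = 0.139) at 2 days off against 2 weeks on and by -0.04 (SE 0.23, adjusted p = 0.919) at 2 weeks off against 6 weeks on. With the brighter one, both repressed groups were also below every heart before induction, at 1272, 954, 1227 and 906, with -0.58 (SE 0.17, adjusted p = 0.0489) and -0.66 (SE 0.18, adjusted p = 0.0455), calls lost in 13 of 20 and 12 of 19 alternatives. Ndufaf1 had 843, 877, 898 and 964 at 2 days off, all below the 4 hearts at 2 weeks on, and fell by 0.71 (SE 0.13, adjusted p = 0.00142). At 2 weeks off against 6 weeks on it was not called, with -0.22 (SE 0.15, adjusted p = 0.336). Ndufaf3 had 1065, 1027 and 761 at 6 weeks on, against 1210.0, 1396, 1248 and 1344 before induction, and fell by 0.44 (SE 0.12, adjusted p = 0.0155). The call of Ndufaf3 was lost in 4 of 19 alternatives. Ndufaf2, Ndufaf6 and Ndufaf8, measured on chip 430B, were called in no comparison. Ndufaf6 averaged 349 ± 53.8 at 2 weeks on and 203 ± 132 before induction, with one heart before induction at 396.

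**Figure D5:**
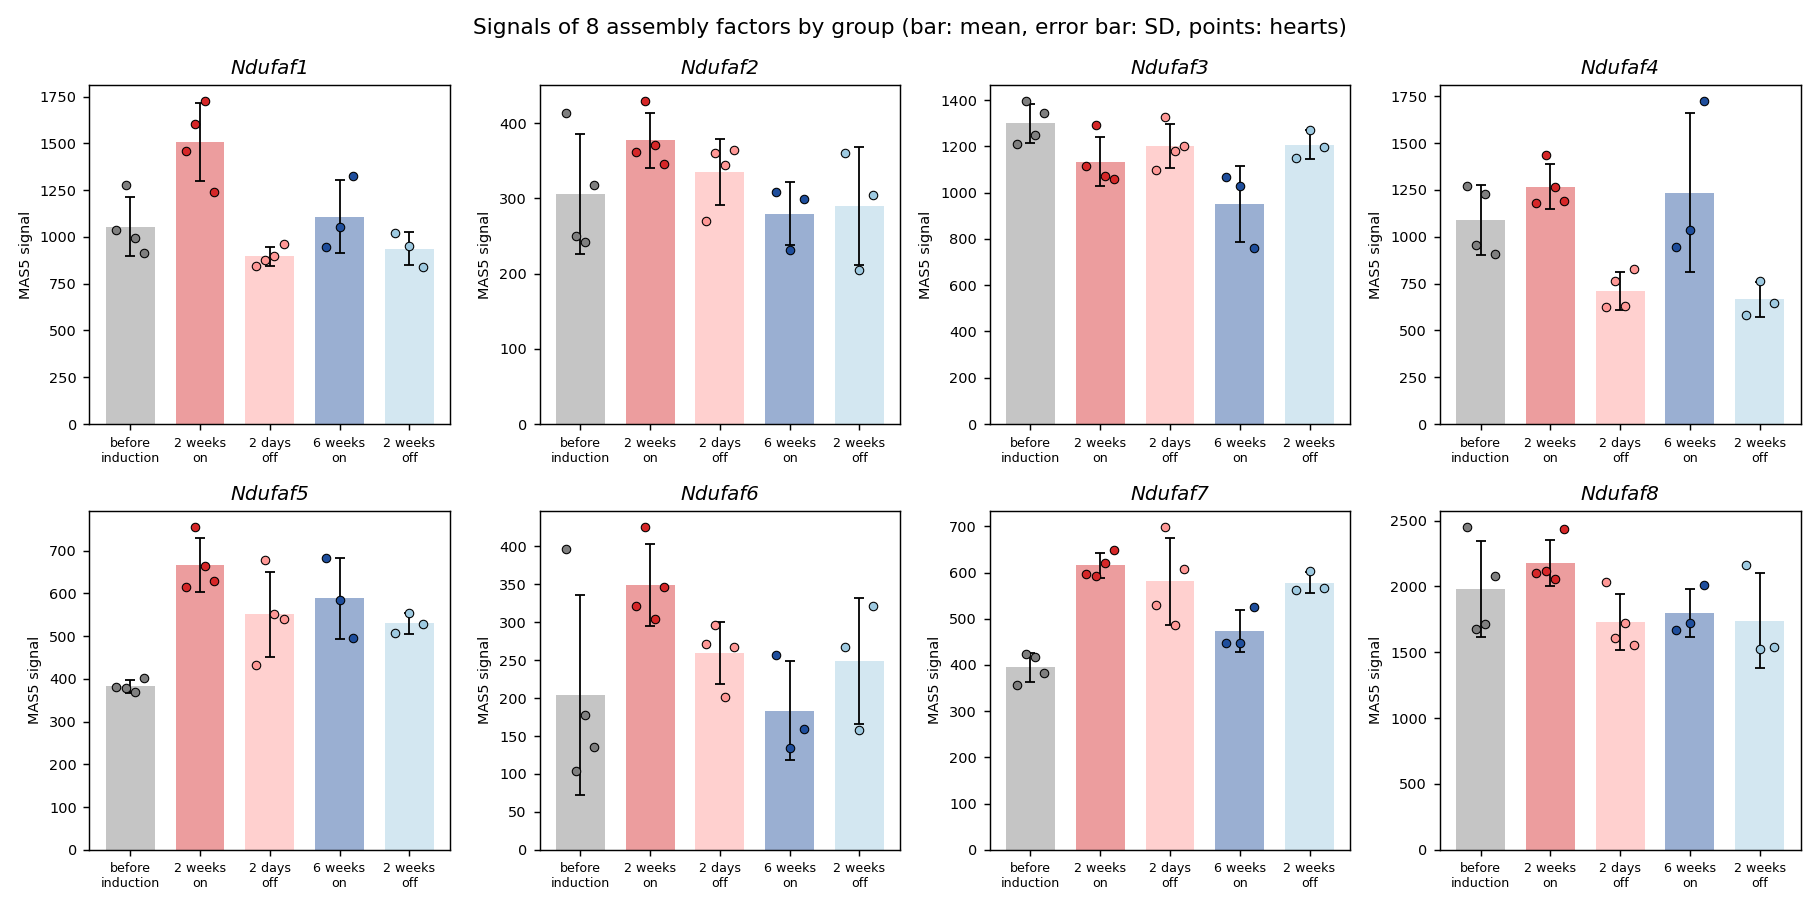
MAS5 signal (y axis, from 0) of the 8 assembly factors in the 5 groups (x axis, in order of age), with bars for means, error bars for SD and points for single hearts (n = 4, 4, 4, 3 and 3). Ndufaf5 and Ndufaf7 are higher at 2 weeks on than in all 4 hearts before induction, and Ndufaf4 is low in both repressed groups.

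Of 10 further assembly factors outside the Nduf symbols, 9 were measured. At 6 weeks on against before induction 2 fell and 0 rose, beside 8.14% and 7.58% of all genes. They were Nubpl, which delivers iron-sulfur clusters to complex I, at -0.99 (SE 0.21, adjusted p = 0.00738), and Tmem126b, at -1.19 (SE 0.34, adjusted p = 0.0419). Nubpl rose at 2 weeks off against 6 weeks on, by 1.11 (SE 0.23, adjusted p = 0.00755), and averaged 553 ± 87.0 at 2 weeks off and 249 ± 42.6 at 6 weeks on. At 2 days off against 2 weeks on Acad9 rose by 1.23 (SE 0.41, adjusted p = 0.0432), and Dmac1 and Ecsit fell, with changes of -0.37 (SE 0.10, adjusted p = 0.0127) and -0.35 (SE 0.11, adjusted p = 0.0247).

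The other respiratory complexes gave the following counts for 2 days off against 2 weeks on, beside 5.36% lower and 5.23% higher of all genes. Of 4 genes of complex II, 1 rose and 0 fell, of 9 of complex III 1 fell, of 12 measured of complex IV 3 fell, and of 15 measured of ATP synthase 6 fell. Sdha, the flavin subunit of complex II, rose by 0.47 (SE 0.10, adjusted p = 0.00446). Uqcrh of complex III changed by -0.63 (SE 0.11, adjusted p = 0.00082), Cox7a1 of complex IV by -0.43 (SE 0.13, adjusted p = 0.0244), and Atp5d of ATP synthase by -0.58 (SE 0.15, adjusted p = 0.0126). At 6 weeks on against before induction, 3 of 4 genes of complex II, 2 of 9 of complex III, 3 of 12 of complex IV and 5 of 15 of ATP synthase fell, and 1 of complex III rose, beside 8.14% lower and 7.58% higher of all genes. Sdhc changed there by -0.71 (SE 0.15, adjusted p = 0.00277) and Atp5g2 by -0.72 (SE 0.11, adjusted p = 0.000216).

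Among 16 regulators of mitochondrial genes, 4 fell and 0 rose at 2 weeks on, and 5 fell and 1 rose at 6 weeks on, against before induction, beside 2.9% lower and 3.69% higher of all genes at 2 weeks on and 8.14% lower and 7.58% higher at 6 weeks on. Ppargc1a, the coactivator of mitochondrial biogenesis, changed by -0.81 (SE 0.17, adjusted p = 0.00536) at 2 weeks on and -1.13 (SE 0.18, adjusted p = 0.000327) at 6 weeks on. Its signal averaged 575 ± 161 at 2 weeks on and 442 ± 82.7 at 6 weeks on, against 1024 ± 111 before induction. Tfb2m, a mitochondrial transcription factor, changed by -0.66 (SE 0.12, adjusted p = 0.000802) at 6 weeks on. At 2 weeks off against 6 weeks on Ppargc1a rose by 0.86 (SE 0.20, adjusted p = 0.00504), and Esrra, an estrogen-related receptor, changed by -0.80 (SE 0.19, adjusted p = 0.00602). Any link of these genes to the subunits was not tested.

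Markers of other cells moved with some groups. Of 6 fibroblast markers, 3 were higher against before induction at 2 weeks on, 2 days off, 6 weeks on and 2 weeks off alike, beside 3.69%, 2%, 7.58% and 1.5% of all genes. Means of Col1a1, Col1a2 and Col3a1 were higher in all 4 groups, while Dcn averaged 14661, 13434, 15362 and 13826, against 15594. Pdgfra was lower at 2 weeks on (548 against 748) and Lum at 6 weeks on (2687 against 3543), and both averaged higher in the other groups. The summed signal of the 6 was 32322 to 42975 at 2 weeks on, 32465 to 41283 at 2 days off, 32977 to 41530.4 at 6 weeks on and 35207 to 42005 at 2 weeks off, against 26485 to 33573 before induction. Of 7 endothelial markers, 3 were lower at 6 weeks on than before induction, beside 8.14% of all genes. The 7 summed to 4148 to 5338 at 6 weeks on, against 5467 to 6840 before induction. At 2 weeks off 3 of the 7 were higher than at 6 weeks on, beside 7.19% of all genes. Their sums were 6168 to 7247 at 2 weeks off, all above those at 6 weeks on. Of 6 measured macrophage and leukocyte markers, 2 were higher at 2 weeks off than at 6 weeks on, beside the same 7.19%. The 6 summed to 5492 to 8027 at 2 weeks off, against 4169 to 5089 at 6 weeks on, without overlap. Of these 6, 1 (Lyz2) was higher at 2 days off than at 2 weeks on, beside 5.23% of all genes. The sums were 4807 to 8004 at 2 days off, against 4485 to 5048 at 2 weeks on. Lyz2, the lysozyme of macrophages, averaged 2978 ± 771 at 2 weeks off and 1363 ± 536 at 6 weeks on. The 4 atrial markers summed to 4392 to 42575 at 2 days off, against 2331 to 15676 at 2 weeks on, and 0 of them were called, while the range before induction was 1805 to 66544. The 2 brown fat markers, Ucp1 and Cidea, summed to 491 to 3786 at 2 days off and 509 to 4414 at 2 weeks off. Their sums were 857 to 1425 at 2 weeks on, 771 to 849 at 6 weeks on and 826 to 1278 before induction. Ucp1 averaged 769 ± 1090 at 2 days off and 925 ± 1446 at 2 weeks off, with lowest hearts at 21.0 and 16.5. The 2 measured adipocyte markers summed to 7375 to 11914 at 2 days off, against 10229 to 12751 at 2 weeks on. Their means went opposite ways. Fabp4, which makes up most of the sum, averaged 8281 ± 1459 at 2 days off and 11649 ± 1023 at 2 weeks on. Adipoq averaged 562 ± 664 at 2 days off, with a lowest heart at 10.7, and 45.8 ± 51.6 at 2 weeks on. Signals of single hearts were as low as 4.1 for Adipoq at 6 weeks on and 6.1 for the atrial marker Myl7 before induction. Presence of these cells in every heart is thus not shown. The part of the markers of these lists in the changes of the complex I genes was not tested.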

How the data were processed

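Total RNA of 18 hearts was hybridised to chips 430A and 430B. The authors deposited linear intensity values, MAS5 signals per the submitters' processing notes (version not given in the sources used here), which were used unchanged. Arrays of a chip share 1 trimmed mean (2% at each end). Probe sets under 20% of it on average were left out, and 10% of it was added before log2. Each chip was fitted apart with limma 3.58.1 in R 4.3.3 (lmFit, eBayes with trend, 5 group means, all 18 hearts), with Benjamini-Hochberg adjustment within chip and comparison. The brightest probe set stood for a gene, on chip 430A where one passed. Hearts are given for up to 8 called members in each comparison, by adjusted p, and up to 3 called genes of each further list. On simulated data for 6 weeks on against before induction, with 200 changed probe sets a chip, 64.3% of changes of 1 log2 unit were recovered on 430A and 15.5% on 430B, and 14% and 1% of changes of 0.5. Symbols are those of the platform; all 44 matched RefSeq by gene ID. Members and lists were chosen with earlier results of these data known. Alternatives covered offset, filter, scaling, model, hearts and probe set. Arrays have no depth in counts, and their number limits the precision. Scan dates were not known.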

Additional observations from a re-analysis of the deposited data

Results flagged for a closer look

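Dixon's test at the 95% level picked out 12 of 132 gene-by-group sets of 4 hearts, where chance alone picks about 1 in 20, or 6.6. In heart 1 before induction the signal lay far above the other 3 hearts for Ndufa1 (20255.8, next 15579.9), Ndufa3 (19399, next 13781), Ndufa8 (11205, next 8923) and Ndufb9 (23535, next 18947). In heart 1 at 2 weeks on it did so for Ndufa2 (7293, next 5740.0), Ndufa3 (21576, next 15197), Ndufa5 (10148, next 7739.7) and Ndufb2 (14127, next 10581). These are both hearts with the highest array mean on chip 430A. At 2 weeks on, heart 2 was high for Ndufa9 (8551, next 8434), and heart 4 was high for Ndufaf8 (2439.5, next 2113) and low for Ndufs5 (961, next 4452). At 2 days off, heart 1 was low for Ndufs3 (6828, next 7920.1).

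The effect of induction differed between 6 weeks and 2 weeks by limma's test for 4 subunits, all lower at 6 weeks on. The differences were -0.53 for Ndufa8, -0.50 for Ndufb6, -0.46 for Ndufs1 and -0.53 for Ndufs4 on the log2 scale. Both effects share the hearts before induction, which cancel in this difference.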

How the results depend on the processing

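Of 56 calls of a member in a comparison, 16 held in every alternative run, 40 were lost in at least 1, and 0 changed sign. Both other offsets and the filter at 50% moved no count of subunits by more than 1.5 times. Counts that did move follow, each against its main count given above. Without a filter, 0 subunits were higher at 2 days off against 2 weeks on, 3 lower at 2 days off against before induction and 1 lower at 2 weeks off against 6 weeks on. With arrays scaled to a common median, 1 was lower at 2 weeks on, 2 higher and 2 lower at 6 weeks on, 3 lower at 2 days off and 1 lower at 2 weeks off, each against before induction. In the same setting 0 were higher at 2 days off and 0 lower at 6 weeks on, each against 2 weeks on, and 1 was higher at 2 weeks off against 6 weeks on. With quantile normalization, 1 was higher at 2 weeks on and 1 at 6 weeks on against before induction, 3 at 2 days off and 2 at 6 weeks on against 2 weeks on, and 7 at 2 weeks off against 6 weeks on. With only the groups compared in the model, 3 were lower at 6 weeks on against before induction and 0 against 2 weeks on, and at 2 weeks off against 6 weeks on 1 was higher and 0 lower. With the Actb ratio as a covariate, 0 were higher at 2 days off against 2 weeks on, and 1 was higher and 0 lower at 2 weeks off against 6 weeks on. Without both hearts with Xist signal, 0 were lower at 2 weeks on and 3 at 2 days off against before induction. When any probe set could carry the call, 1 was higher at 2 weeks on and 1 at 6 weeks on against before induction, 18 were lower at 2 days off against 2 weeks on, and 8 were lower at 2 weeks off against 6 weeks on. This setting gives genes with several probe sets more chances of a call. Without both hearts of highest array mean, chosen after seeing the data, 0 were higher at 2 days off against 2 weeks on, 3 lower at 2 days off against before induction, and 1 higher at 6 weeks on against each of before induction and 2 weeks on. The cause was not tested in any of these.

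Leaving out 1 heart at a time gave 0 to 2 higher and 2 to 3 lower at 2 weeks on, 0 to 1 higher and 5 to 8 lower at 6 weeks on, 1 to 5 lower at 2 days off and 1 to 3 lower at 2 weeks off, each against before induction. It gave 0 to 1 higher and 8 to 10 lower at 2 days off and 0 to 1 higher and 0 to 4 lower at 6 weeks on, each against 2 weeks on, and 1 to 3 higher and 0 to 5 lower at 2 weeks off against 6 weeks on.

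Deviations of same-numbered hearts correlated at a median of -0.02 over 33 pairs on chip 430A, beside 0.004 for other pairs. The range was -0.16 to 0.33, with 5 pairs above 0.1. Most same-numbered hearts thus did not deviate together, and whether single pairs are matched was not tested. With the replicate number as a block, 0 subunits were higher at 2 days off against 2 weeks on and 3 lower at 2 weeks off against 6 weeks on.

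Median scaling shifted the median of all probe sets on chip 430A by 0.18 at 6 weeks on against before induction, -0.11 at 2 days off against 2 weeks on and -0.13 at 2 weeks off against 6 weeks on. On chip 430B it shifted it by 0.12 at 6 weeks on, 0.13 at 2 days off and 0.12 at 2 weeks off, each against before induction. The share of all called genes that were higher became 72.1% with median scaling beside 56.0% at 2 weeks on, 76.95% beside 48.2% at 6 weeks on and 72.8% beside 55.4% at 2 weeks off, each against before induction. Against 2 weeks on it became 29.8% beside 49.4% at 2 days off and 69.1% beside 45.5% at 6 weeks on. It became 36.6% beside 56.5% at 2 weeks off against 6 weeks on, and 39.1% beside 50% for the difference of both repression effects.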
